A study of Homo sapiens with 6 samples.

Results

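The genes described here encode classical protein tyrosine phosphatases and dual-specificity phosphatases. They were taken from the probe sets with 1 listed platform symbol. That symbol had to begin with PTPN and a digit, PTPR and a letter, or DUSP and a digit. The rule gave 50 genes on 87 probe sets, out of 11963 genes on 19064 probe sets with 1 listed symbol. Where a gene had several probe sets, the one brightest on average over the 6 arrays stood for it. T98G and U87MG, both established human glioblastoma cell lines, were each measured on 3 Affymetrix arrays. Both lines were grown in DMEM with fetal bovine serum, glutamine, penicillin and streptomycin, and the labels name no treatment of these samples. By the labels, T98G cells undergo apoptosis under the proteasome inhibitor bortezomib and the isopeptidase inhibitor G5 and partly resist necrosis under G5, whereas U87MG cells resist apoptosis under both and die by necrosis under G5. Each group is a single line, and the labels do not say that its 3 arrays came from separate cultures. The p-values therefore reflect the variation among these arrays alone, which may be technical.

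Protein tyrosine phosphatases remove phosphate from tyrosine and so oppose the tyrosine kinases. The receptor forms carry adhesion-like ectodomains across the membrane, while the non-receptor forms are placed in the cell by SH2, FERM, PDZ or proline-rich parts. The dual-specificity phosphatases also act on serine and threonine, and those with a kinase-interacting domain switch off the MAP kinases ERK, JNK and p38. Several of them are transcribed in response to ERK and close a negative feedback loop on it, a circuit much studied in glioma because receptor tyrosine kinases are often altered there. The rule also caught PTPRCAP, which encodes a protein that binds CD45 and is no phosphatase.

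Array values correlated at 0.99 to 0.997 within a line and 0.934 to 0.939 between lines, and array medians lay between 7.55 and 7.65. All levels below are log2 intensities, and all differences are T98G minus U87MG. The highest value of the bacterial trp control probe sets, 4.03, served as a floor, below which a reading has no order. By the calls defined below, glial markers gave 1 gene higher, 2 lower and 11 neither in T98G out of 14 measured. That is 21.4% called, beside 13.6% of all genes, with a median difference of -0.09. The glial transcription factor SOX9 was higher by 1.99, and the progenitor filament NES and the glutamate transporter SLC1A3 differed by -2.55 and -1.04. Among the defining astrocyte genes GFAP averaged 6.42 in T98G and 6.52 in U87MG, and S100B averaged 4.13 in T98G and 4.23 in U87MG. The mesenchymal and glioma markers VIM and CD44 averaged 14.59 and 13.93 in T98G, and 14.85 and 13.68 in U87MG. On U87MG replicate 3 the poly-A spike-in controls averaged 5.30, below the 6.10 to 6.84 of the other arrays, and the same 12 phosphatase genes named below were called without that array.

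A gene was called when limma's adjusted p was under 0.05 and the difference at least 2-fold. By that rule 3 of the 50 genes were higher in T98G (PTPRF, PTPRA and DUSP10), 9 were lower (DUSP1, DUSP6, PTPRR, PTPN22, PTPN3, PTPRD, PTPRM, PTPRN and PTPRN2), and 38 were neither. In bulk RNA, fewer cells that express a gene and less of its RNA per cell cannot be told apart. The called share was 24% of the phosphatase genes, beside 13.6% of all genes tested. Over all genes 7.01% were called higher and 6.56% lower. An adjusted p under 0.05 with any fold was reached by 27 of the 50, of which 15 fell short of 2-fold, beside 41.3% of all genes. The arrays of the lines did not overlap for 29 of the 50, beside 52% of all genes. Those 29 include PTPN20, whose 6 readings were all under the floor and so have no order. The median difference was -0.03 for the 50 genes and 0.01 for all genes. The size of the differences was larger at the median, 0.369 against 0.257 over all genes, and 7 of the 50 genes (14%) were called with at least 4-fold, against 574 of all genes (4.8%). By class, the called share was largest among the receptors. Of 17 receptor PTPR genes 2 were higher and 5 lower (41.2% called). Of 15 PTPN genes 0 were higher and 2 lower (13.3%), and of 17 DUSP genes 1 was higher and 2 lower (17.6%).

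**Figure D1:**
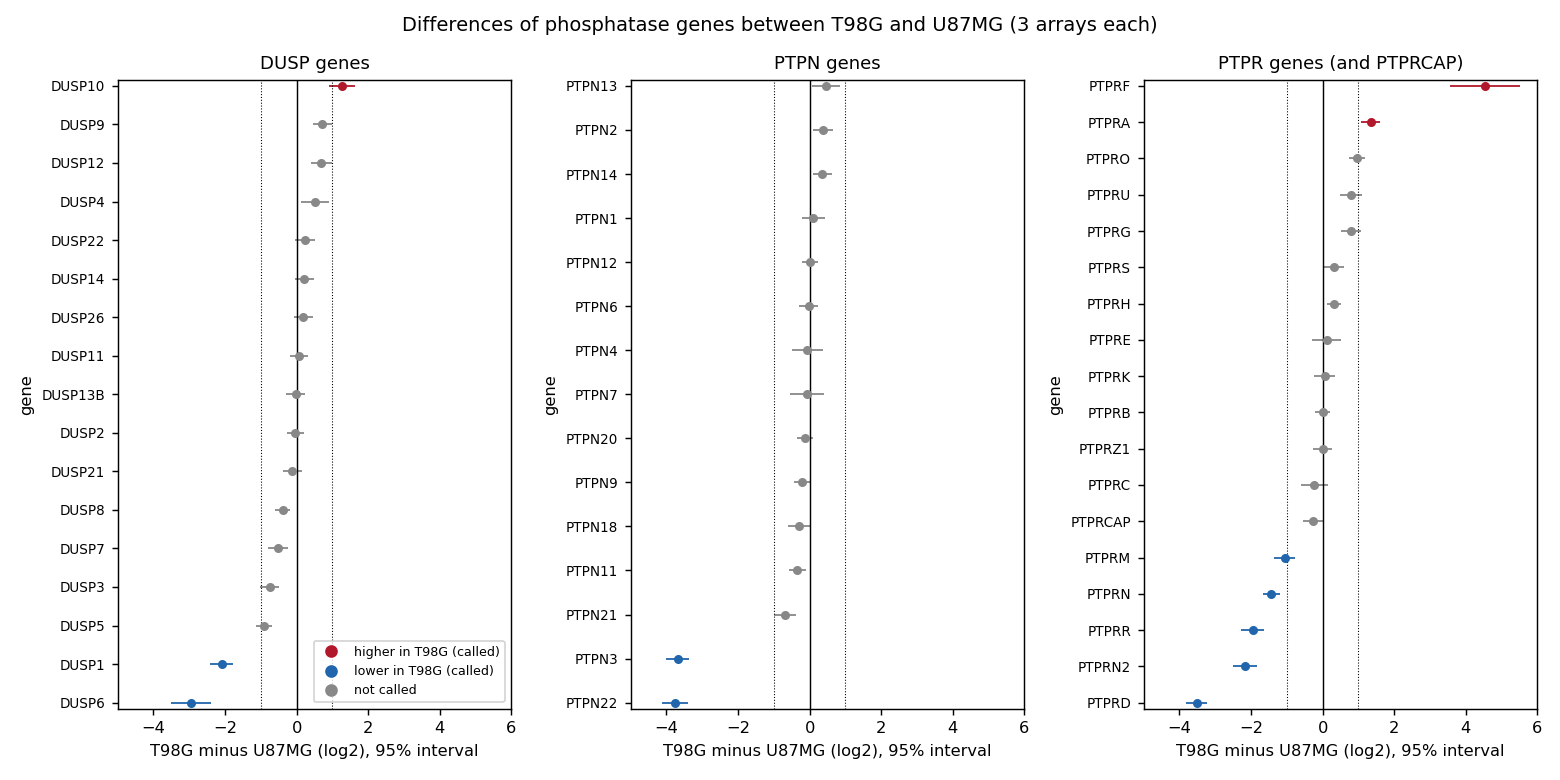
Differences of the 50 genes between T98G and U87MG (horizontal axis, log2, T98G minus U87MG) with 95% intervals from limma, 3 arrays per line; colours show genes called higher, called lower or not called. PTPRF at 4.54 lies at the upper end. At the lower end are PTPN22, PTPN3 and PTPRD, with fitted differences between -3.76 and -3.52. The PTPRD probe set shown is under the floor in T98G, and 38 genes were not called.

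**Figure D2:**
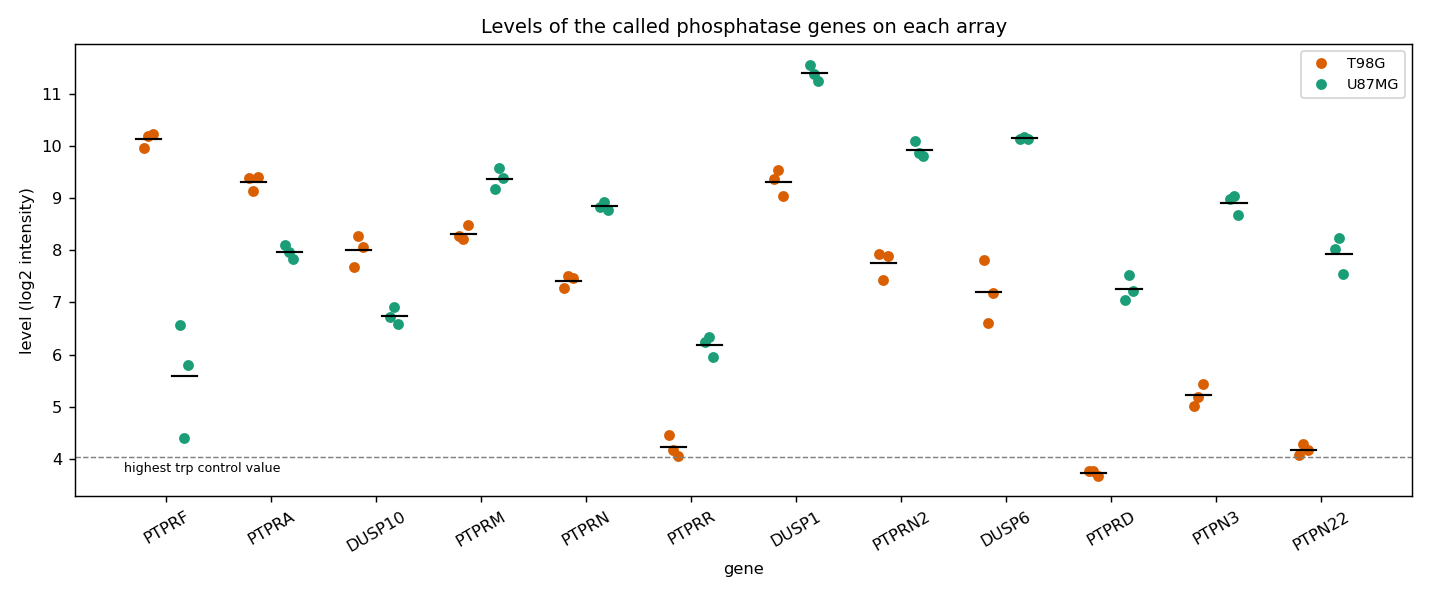
Levels (log2 intensity) of the 12 called genes on each array, T98G left of U87MG, with bars at the means and a dashed line at the highest trp control value. The arrays of the lines do not overlap for any of the 12, which were picked by their differences, nor for 52% of all genes tested. The U87MG points of PTPRF and the T98G points of DUSP6 are the most scattered.

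Among the nuclear, inducible MAP kinase phosphatases, DUSP1, also known as MKP-1, is an immediate-early gene whose product inactivates p38, JNK and ERK in the nucleus. Its level was 9.36, 9.54 and 9.04 on the T98G arrays, against 11.56, 11.39 and 11.25 on the U87MG arrays (chromosome 5). Every U87MG array was brighter than every T98G array. The means were 9.31 ± 0.25 in T98G and 11.40 ± 0.16 in U87MG (SD, n = 3 each), a difference of -2.09 (SE 0.14), or 4.25-fold lower in T98G (limma, adjusted p = 2.641e-06). Its second probe set was also called lower, at -1.65. DUSP5, a nuclear phosphatase of ERK that ERK itself induces, had 8.49, 8.29 and 8.44 on the T98G arrays, against 9.24, 9.30 and 9.41 on the U87MG arrays. The arrays did not overlap, but the difference of -0.91 (95% interval -1.15 to -0.68, limma adjusted p = 7.681e-05) fell short of 2-fold. DUSP4, or MKP-2, went the other way, with 9.62, 9.15 and 9.08 on the T98G arrays, against 8.93, 8.91 and 8.49 on the U87MG arrays. That is a difference of 0.51 (95% interval 0.12 to 0.89, limma adjusted p = 0.04019), short of 2-fold, and its second probe set gave 0.26. Without T98G replicate 1 the difference was 0.34 (limma, adjusted p = 0.1508), and without U87MG replicate 3 it was 0.36 (limma, adjusted p = 0.1119). DUSP2, a phosphatase best known from activated lymphocytes, differed by -0.04 (95% interval -0.28 to 0.20) and was not called.

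Of the cytoplasmic phosphatases of ERK, DUSP6 (MKP-3) is highly selective for ERK and often used as a readout of ERK activity. ERK activity was not measured here, and its part in the differences was not tested. DUSP6 read 7.82, 6.61 and 7.17 on the T98G arrays, against 10.13, 10.18 and 10.13 on the U87MG arrays (chromosome 12). The U87MG arrays lay almost on one value, whereas the T98G arrays were scattered and all lower. It averaged 7.20 ± 0.60 in T98G and 10.15 ± 0.03 in U87MG (SD, n = 3 each) and was 7.71-fold lower in T98G, a difference of -2.95 (SE 0.25, limma adjusted p = 9.786e-06). All 3 of its probe sets were called lower, at -3.29 to -2.10. DUSP7, its close relative, had 8.63, 9.003 and 8.79 on the T98G arrays, against 9.34, 9.46 and 9.18 on the U87MG arrays, without overlap. It differed by -0.52 (95% interval -0.80 to -0.23, limma adjusted p = 0.008411), short of 2-fold. DUSP9, or MKP-4, differed by 0.72 in the other direction (95% interval 0.46 to 0.98, limma adjusted p = 0.0007734), also short of 2-fold.

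The phosphatases directed at the stress kinases JNK and p38 were DUSP10 and DUSP8. DUSP10, or MKP-5, gave 7.68, 8.27 and 8.06 on the T98G arrays, against 6.71, 6.91 and 6.58 on the U87MG arrays (chromosome 1). Here the T98G arrays were the higher ones and none overlapped. The means of 8.004 ± 0.30 in T98G and 6.73 ± 0.16 in U87MG (SD, n = 3 each) differed by 1.27 (SE 0.16), 2.41-fold higher in T98G (limma, adjusted p = 0.0001432). Its second probe set, at 0.83, was not called. DUSP8 differed by -0.39 (95% interval -0.60 to -0.17, limma adjusted p = 0.008592). PTPRR and PTPN7 are tyrosine phosphatases that hold ERK and p38 through a kinase-interaction motif. PTPRR had 4.46, 4.17 and 4.05 on the T98G arrays, against 6.25, 6.35 and 5.95 on the U87MG arrays (chromosome 12). The T98G readings sat just above the floor and every U87MG reading was higher. It averaged 4.23 ± 0.21 in T98G and 6.18 ± 0.21 in U87MG (SD, n = 3 each), 3.87-fold lower in T98G with a difference of -1.95 (SE 0.14, limma adjusted p = 4.167e-06), and both of its probe sets were called. PTPN7 overlapped between the lines, with 6.41, 6.37 and 6.31 on the T98G arrays, against 5.97, 6.39 and 6.94 on the U87MG arrays, and differed by -0.07 (95% interval -0.54 to 0.40). Of the 9 MAP kinase phosphatases of the DUSP family, 1 was called higher and 2 lower (33.3%, beside 13.6% of all genes), 8 had an adjusted p under 0.05 (beside 41.3% of all genes), and the median difference was -0.39.

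The promoters of DUSP1 and DUSP6, the called feedback phosphatases of ERK, are given as the 250 bases before the start in RefSeq (GRCh38.p14), on the gene's strand, which is the minus strand for both. DUSP1 was added after the promoters had been seen. Capitals mark matches, on either strand, to 6 motifs: the cAMP response element TGACGTCA, the AP-1 element TGANTCA, the ETS element CCGGAA, the GC box GGGCGG, the TATA element TATAAA and the E-box CACGTG.
DUSP1, chr5:172771196-172771445: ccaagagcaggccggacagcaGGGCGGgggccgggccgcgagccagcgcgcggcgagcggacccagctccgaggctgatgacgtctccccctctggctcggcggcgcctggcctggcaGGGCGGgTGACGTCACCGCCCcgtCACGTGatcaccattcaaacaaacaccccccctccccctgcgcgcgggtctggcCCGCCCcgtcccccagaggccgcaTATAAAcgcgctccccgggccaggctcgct
DUSP6, chr12:89352502-89352751: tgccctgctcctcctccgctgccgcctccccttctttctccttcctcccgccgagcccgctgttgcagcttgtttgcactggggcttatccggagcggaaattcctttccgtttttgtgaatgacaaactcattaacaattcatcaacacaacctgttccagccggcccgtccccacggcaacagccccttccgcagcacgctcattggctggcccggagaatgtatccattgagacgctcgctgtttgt
DUSP1 held TGACGTCA at 125 to 118 bases before the start, 4 GC boxes, TATAAA at 30 to 25 bases and CACGTG at 108 to 103 bases, and no matches overlapped. DUSP6 held none of the 6 in this window. TGACGTCA was found in 1.65% of the 35116 promoters in the table, GGGCGG in 42.6%, TATAAA in 10.7% and CACGTG in 6.34%. Of the 64 promoters listed for 42 of the 50 genes, TGACGTCA was in 4 (those of DUSP1, DUSP8, PTPRS and PTPRU) and GGGCGG in 35. The DUSP1 window was 74.4% G and C with 30 CG dinucleotides, the DUSP6 window 57.2% with 16, and the median over all promoters was 58% with 11. A match is a description of letters, and a missing one says only that these letters are not in the window.

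The genes around these phosphatases were read from lists of the ERK cascade and its outputs. The lists were chosen with earlier results of these data known, so their called shares are descriptions and not a test. Among ERK feedback and output genes 33 of 37 were measured, with 4 called higher, 14 called lower and 15 neither in T98G (54.5% called, beside 13.6% of all genes), and the median difference was -0.53. The largest differences among those lower were in EREG, a growth factor of the EGF family, SPRY2, an inhibitor of receptor tyrosine kinase signalling, and ETV1, an ETS factor induced by ERK. EREG averaged 4.11 in T98G and 12.39 in U87MG, with 1 of 3 T98G arrays under the floor, a fitted difference of -8.27. SPRY2 averaged 6.62 in T98G and 10.53 in U87MG, and ETV1 averaged 5.95 in T98G and 9.46 in U87MG, 15-fold and 11.4-fold lower in T98G (limma, adjusted p = 4.252e-08 and 5.631e-08). In the other direction EPHA4, an ephrin receptor, SPRY1, a second Sprouty inhibitor, and IL6, a cytokine, differed by 3.44, 2.48 and 1.499. Of the MAPK cascade kinases, 25 of 33 were measured, with 2 called higher, 1 called lower and 22 neither (12% called) and a median of -0.07. MAP2K6, which activates p38, and MAPK12, a p38 isoform, were higher by 1.82 and 1.48, and MAP2K5, which activates ERK5, differed by -1.16.

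**Figure D3:**
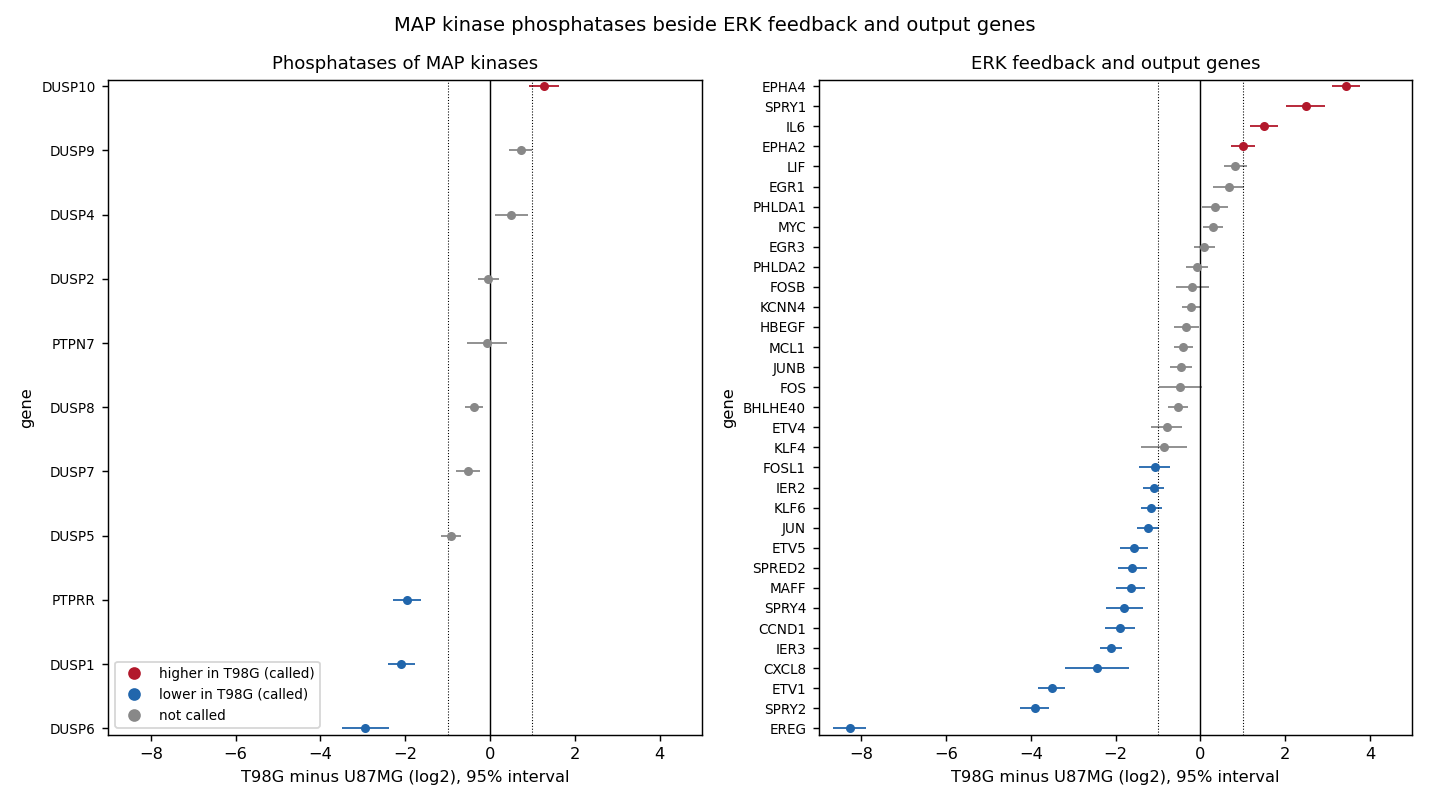
Differences (T98G minus U87MG, log2, with 95% intervals from limma) of the MAP kinase phosphatases on the left and of ERK feedback and output genes on the right; colours show calls. DUSP6, DUSP1 and PTPRR lie at -2.95, -2.09 and -1.95 and DUSP10 at 1.27, beside 14 output genes called lower and 4 called higher. The output genes were listed with earlier results of these data known.

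Among the non-receptor tyrosine phosphatases, the widely expressed PTPN1, PTPN2 and PTPN11 were not called. PTPN1, or PTP1B, which acts on the insulin receptor, had 9.75, 9.66 and 9.67 on the T98G arrays, against 9.71, 9.80 and 9.28 on the U87MG arrays. These arrays overlapped, and the difference was 0.10 (95% interval -0.22 to 0.42, limma adjusted p = 0.6424). PTPN2, or TC-PTP, which acts on JAK kinases and STATs, had 9.54, 9.66 and 9.58 on the T98G arrays, against 9.25, 9.40 and 8.99 on the U87MG arrays, with the U87MG arrays lower. It differed by 0.38 (95% interval 0.11 to 0.66, limma adjusted p = 0.0311), and its probe sets ran from -0.40 to 0.38, none of them called. PTPN11, or SHP2, which is needed for RAS and ERK activation by growth factors, had 12.28, 12.34 and 12.23 on the T98G arrays, against 12.64, 12.75 and 12.49 on the U87MG arrays. The T98G arrays were all lower. It differed by -0.34 (95% interval -0.58 to -0.11, limma adjusted p = 0.02563), well short of 2-fold. PTPN6, or SHP1, which is mainly a blood cell enzyme, had 6.60, 6.56 and 6.79 on the T98G arrays, against 6.53, 6.80 and 6.71 on the U87MG arrays, with overlap and a difference of -0.03 (95% interval -0.29 to 0.23).

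The PEST-type enzymes bind adaptors through a proline-rich tail. PTPN22, or LYP, is the T cell enzyme that acts on LCK and is known from autoimmune disease. Its level was 4.08, 4.28 and 4.17 on the T98G arrays, against 8.02, 8.23 and 7.55 on the U87MG arrays. The T98G readings lay just above the floor and every U87MG reading was well above it. PTPN22 averaged 4.18 ± 0.10 in T98G and 7.93 ± 0.35 in U87MG (SD, n = 3 each), 13.5-fold lower in T98G, with a difference of -3.76 (SE 0.16, limma adjusted p = 9.947e-08). Of its other probe sets, 1 was called lower, at -2.08, and 1 was under the floor on all 6 arrays, at -0.12. PTPN22 is known mainly from lymphocytes, and leukocyte markers were read beside it. Of 20 leukocyte markers measured, 0 were called higher, 1 was called lower and 19 were neither (5% called, beside 13.6% of all genes). The gene called lower was CSF1R, the receptor of the macrophage growth factor, at -1.01. The leukocyte markers had a median difference of -0.02 and a median level of 6.19 in both lines, below every array median. None of these markers was under the floor on all 6 arrays. The log2 of their summed intensity ran from 10.66 to 10.70 on the T98G arrays and from 10.57 to 10.79 on the U87MG arrays. PTPRC, or CD45, which defines leukocytes, had 4.43, 4.36 and 4.19 on the T98G arrays, against 4.40, 4.30 and 4.96 on the U87MG arrays. These readings lay near the floor in both lines and overlapped, with a difference of -0.23 (95% interval -0.61 to 0.15). PTPRCAP, its binding partner, differed by -0.26 (95% interval -0.54 to 0.02). PTPN12, or PTP-PEST, which acts on the focal adhesion adaptors CAS and paxillin, had 10.66, 10.55 and 10.65 on the T98G arrays, against 10.69, 10.60 and 10.54 on the U87MG arrays, and differed by 0.01 (95% interval -0.21 to 0.23). PTPN18 differed by -0.29 (95% interval -0.61 to 0.04).
The PTPN22 promoter is printed because the gene had one of the largest fitted differences among those called lower in T98G, in 250 bases on the minus strand (RefSeq, GRCh38.p14), with none of the 6 motifs in it.
PTPN22, chr1:113871713-113871962: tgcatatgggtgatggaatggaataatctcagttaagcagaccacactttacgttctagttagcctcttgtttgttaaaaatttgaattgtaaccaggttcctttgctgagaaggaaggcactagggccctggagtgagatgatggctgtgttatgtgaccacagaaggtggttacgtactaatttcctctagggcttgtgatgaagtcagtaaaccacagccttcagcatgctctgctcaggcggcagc
It was 45.6% G and C with 3 CG dinucleotides, below the medians of 58% and 11 over all promoters.

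The FERM-domain enzymes sit at the cell cortex. PTPN3, or PTPH1, which also carries a PDZ domain and acts on p38 gamma, had 5.02, 5.20 and 5.43 on the T98G arrays, against 8.99, 9.04 and 8.68 on the U87MG arrays (chromosome 9). Every U87MG array was brighter by a wide margin. PTPN3 averaged 5.22 ± 0.21 in T98G and 8.90 ± 0.19 in U87MG (SD, n = 3 each), 12.9-fold lower in T98G with a difference of -3.68 (SE 0.14, limma adjusted p = 4.114e-08), on its single probe set. PTPN14, a regulator of the Hippo co-activator YAP, had 8.14, 8.31 and 7.94 on the T98G arrays, against 7.77, 7.70 and 7.85 on the U87MG arrays. Its arrays did not overlap and it differed by 0.36 (95% interval 0.09 to 0.62, limma adjusted p = 0.03569). PTPN21 differed by -0.68 (95% interval -0.99 to -0.37, limma adjusted p = 0.00308), and none of its probe sets was called. PTPN13, or FAP-1, which binds the death receptor FAS, differed by 0.45 (95% interval 0.05 to 0.85, limma adjusted p = 0.06817), and PTPN4 by -0.07 (95% interval -0.50 to 0.37). PTPN9, a phosphatase of intracellular vesicles, had 9.08, 9.18 and 9.13 on the T98G arrays, against 9.19, 9.35 and 9.45 on the U87MG arrays, without overlap, and its difference of -0.20 (95% interval -0.44 to 0.04) was not called. PTPN20 was below the floor on all 6 arrays.

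The LAR-type receptors, which bind heparan and chondroitin sulphate proteoglycans and synaptic partners, split. PTPRF, or LAR, gave 9.96, 10.19 and 10.23 on the T98G arrays, against 6.56, 4.40 and 5.80 on the U87MG arrays. The T98G arrays were tight and the U87MG arrays were spread over more than 2 log2 units, all of them lower. PTPRF averaged 10.13 ± 0.15 in T98G and 5.59 ± 1.10 in U87MG (SD, n = 3 each), a difference of 4.54 (SE 0.43, 95% interval 3.57 to 5.51), or 23.3-fold higher in T98G (limma, adjusted p = 2.269e-05). Without U87MG replicate 2, the lowest of them, the difference was 3.95 and the call held. Of its 4 probe sets, 3 were called higher, at 4.54, 3.34 and 2.71, and the fourth, at 0.40, was not called. PTPRD, a tumour suppressor often inactivated in glioblastoma, gave 3.76, 3.76 and 3.68 on the T98G arrays, against 7.04, 7.52 and 7.21 on the U87MG arrays (chromosome 9). All 3 T98G arrays were below the floor, and on this probe set PTPRD was at least 9.35-fold lower in T98G (fitted difference -3.52, limma adjusted p = 3.437e-08). Its means were 3.74 ± 0.05 in T98G and 7.26 ± 0.24 in U87MG (SD, n = 3 each). All 3 of its probe sets were called lower, but the others gave smaller differences, -1.56 and -1.45. Their T98G means, 4.71 and 4.50, lay above the floor, so the bound holds for the brightest probe set alone. PTPRS, the third of the type, differed by 0.32 (95% interval 0.04 to 0.60, limma adjusted p = 0.06747).
The PTPRF promoter is shown as that of the gene with the largest called rise, in 250 bases on the plus strand (RefSeq, GRCh38.p14).
PTPRF, chr1:43530633-43530882: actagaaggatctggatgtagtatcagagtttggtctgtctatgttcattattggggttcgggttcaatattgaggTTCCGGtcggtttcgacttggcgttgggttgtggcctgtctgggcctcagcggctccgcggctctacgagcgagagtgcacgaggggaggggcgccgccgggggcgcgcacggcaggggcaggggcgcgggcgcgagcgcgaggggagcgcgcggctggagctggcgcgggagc
It was 66% G and C with 28 CG dinucleotides, and the 1 motif in it, in capitals, is the ETS element CCGGAA read on the other strand, 174 to 169 bases before the start. CCGGAA was found in 14.5% of all promoters and in 5 of 64 promoters of the phosphatase genes.

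PTPRK, which mediates homophilic adhesion through a MAM domain, had 11.33, 11.63 and 11.62 on the T98G arrays, against 11.52, 11.63 and 11.27 on the U87MG arrays, with overlap and a difference of 0.06 (95% interval -0.24 to 0.35). PTPRM, a homophilic adhesion receptor of the same class, had 8.27, 8.21 and 8.48 on the T98G arrays, against 9.17, 9.57 and 9.38 on the U87MG arrays (chromosome 18). No arrays overlapped, and the means of 8.32 ± 0.14 in T98G and 9.38 ± 0.20 in U87MG (SD, n = 3 each) differed by -1.06 (SE 0.13), 2.08-fold lower in T98G (limma, adjusted p = 0.0001284). Without U87MG replicate 2 the difference was -0.96 and the call was lost. PTPRU, the third of the class, differed by 0.80 (95% interval 0.49 to 1.11, limma adjusted p = 0.001176), short of 2-fold.

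PTPRA, the receptor that activates SRC by removing its inhibitory phosphate, had 9.39, 9.13 and 9.40 on the T98G arrays, against 8.11, 7.97 and 7.84 on the U87MG arrays (chromosome 20). All T98G arrays were higher than all U87MG arrays. PTPRA averaged 9.31 ± 0.15 in T98G and 7.97 ± 0.13 in U87MG (SD, n = 3 each), 2.53-fold higher in T98G, with a difference of 1.34 (SE 0.12, limma adjusted p = 1.503e-05), and both probe sets were called. PTPRE, its closest relative, differed by 0.12 (95% interval -0.29 to 0.53). Of the carbonic anhydrase type, PTPRG had 9.74, 9.60 and 9.89 on the T98G arrays, against 9.10, 9.02 and 8.77 on the U87MG arrays, without overlap, and differed by 0.78 (95% interval 0.50 to 1.06, limma adjusted p = 0.0006657), short of 2-fold. PTPRZ1, a receptor expressed in glial progenitors and many gliomas, had 3.27, 3.36 and 3.04 on the T98G arrays, against 3.29, 3.27 and 3.11 on the U87MG arrays. All 6 readings were below the floor, so it has no fold. Among the receptors with fibronectin repeats, PTPRO had 13.31, 13.27 and 13.25 on the T98G arrays, against 12.38, 12.22 and 12.38 on the U87MG arrays. These arrays did not overlap, and the difference of 0.95 (95% interval 0.73 to 1.17, limma adjusted p = 4.165e-05) fell just short of 2-fold. The second PTPRO probe set averaged only 4.21 in T98G and 3.96 in U87MG, near the floor and with 2 arrays under it. The high level of PTPRO was therefore read on 1 probe set only. PTPRH and PTPRB differed by 0.32 and 0.00, with limma adjusted p of 0.01969 and 0.9971.

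PTPRN and PTPRN2, known as IA-2 and phogrin, are membrane proteins of secretory granules in neuroendocrine cells and neurons, with little or no activity on phosphotyrosine, and both are autoantigens in type 1 diabetes in humans. PTPRN gave 7.27, 7.51 and 7.46 on the T98G arrays, against 8.84, 8.93 and 8.78 on the U87MG arrays (chromosome 2). PTPRN2 gave 7.93, 7.43 and 7.89 on the T98G arrays, against 10.09, 9.87 and 9.81 on the U87MG arrays (chromosome 7). Both were lower on every T98G array. PTPRN averaged 7.41 ± 0.12 in T98G and 8.85 ± 0.08 in U87MG (SD, n = 3 each), 2.71-fold lower in T98G, with a difference of -1.44 (SE 0.11, limma adjusted p = 4.238e-06). PTPRN2 averaged 7.75 ± 0.27 in T98G and 9.92 ± 0.15 in U87MG (SD, n = 3 each), 4.5-fold lower, with a difference of -2.17 (SE 0.15, limma adjusted p = 2.492e-06), and its 3 probe sets were all called lower, at -2.86 to -1.40. Beside these, 13 neuron markers gave 1 called higher, 3 called lower and 9 neither (30.8% called, beside 13.6% of all genes). MAP2 was higher by 2.02, and ENO2, SNAP25 and GAP43 differed by -2.67, -1.60 and -1.13. The neuron markers had a median difference of -0.15. The log2 of their summed intensity ran from 13.11 to 13.29 on the T98G arrays and from 14.02 to 14.20 on the U87MG arrays. Among 9 endothelial markers 1 was called lower (KDR, the VEGF receptor, at -3.27) and 8 were neither (11.1% called), with a median of 0.01. None of the neuron or endothelial markers was under the floor on all 6 arrays. Their median levels in T98G and U87MG were 5.40 and 5.77 (neuron) and 5.03 and 5.13 (endothelial), below every array median. The part of these markers in the differences was not tested.

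The 8 atypical dual-specificity phosphatases, which lack the MAP kinase-binding domain, held 0 called genes (beside 13.6% of all genes), and 2 had an adjusted p under 0.05 with limma (beside 41.3% of all genes). DUSP3, or VHR, had 9.81, 9.76 and 9.76 on the T98G arrays, against 10.69, 10.62 and 10.28 on the U87MG arrays. These arrays did not overlap, and the difference was -0.76 (95% interval -1.03 to -0.48, limma adjusted p = 0.0008289), short of 2-fold. DUSP12 had 10.71, 10.93 and 10.70 on the T98G arrays, against 10.27, 10.13 and 9.86 on the U87MG arrays, also without overlap, and differed by 0.69 (95% interval 0.40 to 0.98, limma adjusted p = 0.001839). DUSP22, or JKAP, which acts in JNK signalling, had 8.72, 8.36 and 8.60 on the T98G arrays, against 8.45, 8.23 and 8.30 on the U87MG arrays, with overlap, and differed by 0.24 (95% interval -0.04 to 0.51). DUSP11, DUSP13B, DUSP14, DUSP21 and DUSP26 differed by -0.12 to 0.21, with intervals that held 0.

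Ligands and partners of the receptors, and kinases and adaptors on which phosphatases act, were read from 2 further lists. These lists too were chosen with earlier results of these data known. Of the receptor phosphatase ligands and partners, 32 of 39 were measured, with 7 called higher, 4 called lower and 21 neither. That is 34.4% called, beside 13.6% of all genes, with a median of 0.02. The growth factors midkine and pleiotrophin bind the ectodomain of PTPRZ1, whose own readings were under the floor on all 6 arrays. MDK, midkine, averaged 11.40 in T98G and 6.99 in U87MG, 21.1-fold higher in T98G, and PTN, pleiotrophin, averaged 8.41 in T98G and 10.77 in U87MG, 5.14-fold lower (limma, adjusted p = 4.22e-09 and 6.581e-05). The matrix gene THBS1 and the adhesion gene NRCAM were higher by 6.06 and 4.14, and the matrix gene TNC and the axonal adhesion gene NFASC differed by -3.30 and -2.24. Of the tyrosine kinases and adaptors, 48 of 53 were measured, with 11 called higher, 3 lower and 34 neither (29.2% called) and a median of -0.02. LYN, a SRC-family kinase, averaged 10.84 in T98G and 7.495 in U87MG, and FYN, another, averaged 8.03 in T98G and 11.36 in U87MG. Those are 10.2-fold higher and 9.99-fold lower in T98G (limma, adjusted p = 5.899e-07 and 4.068e-08). PDGFRB and PDGFRA, receptors of PDGF, were higher by 3.17 and 3.14, while INSR, the insulin receptor, and STAT6, a transcription factor of IL4 signalling, differed by -1.42 and -1.03. The wider phosphatase superfamily, with 32 of 36 genes measured, gave 3 called higher, 1 called lower and 28 neither (12.5% called) and a median of 0.02. MTMR1, a lipid phosphatase, was 7.79-fold higher, and EYA1 and CDC25B were higher by 1.66 and 1.34. CDKN3, a phosphatase of cyclin-dependent kinases, differed by -1.37.

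Several probe sets were present for 21 of the 50 genes. All of them gave the same call in 18, and in 3 (PTPRF, PTPN22 and DUSP10) at least 1 differed, with 0 opposite calls. When probe sets whose suffix marks a possible match to several transcripts were left out, PTPRF at 0.40 and PTPN22 at -0.12 were read on other probe sets and lost their calls, and DUSP1, PTPRA and PTPRN2 had no value. Of the 12 called genes, 9 had several probe sets and 6 were called the same way on every one. The 38 genes not called include 2, PTPN20 and PTPRZ1, whose 6 arrays were all under the floor. To see whether the genes lay in regions that differed together, the 5 measured genes on each side along the chromosome were read, a check added after the values were seen. Of 10 neighbours, 2 were called in the same direction for PTPRF, PTPRA and PTPN3, 1 for DUSP6 and 0 for the others (PTPRN2 having 8 neighbours), while 1 was called in the opposite direction for DUSP10, PTPN3 and PTPRD. For comparison, 7.01% of all genes tested were called higher and 6.56% lower. The median difference of the neighbours was 0.38 for PTPRF and 0.39 for PTPRA, and between -0.15 and 0.12 for the other called genes.

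**Figure D4:**
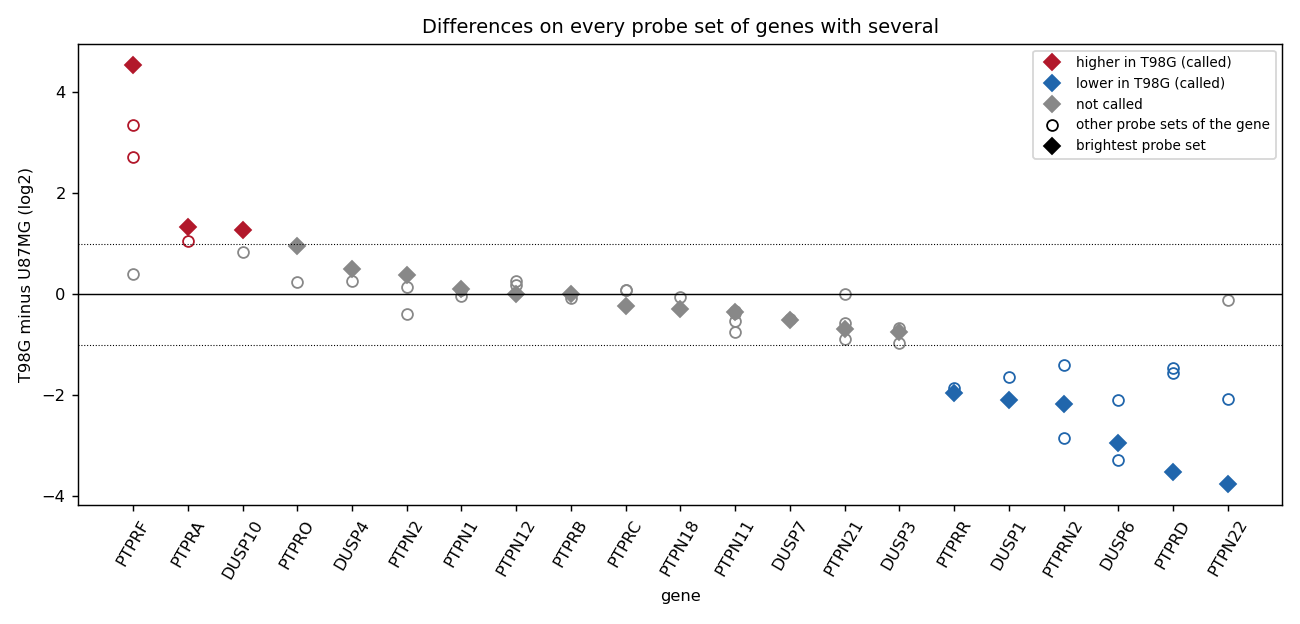
Differences (T98G minus U87MG, log2) on every probe set of the 21 genes with several; diamonds are the brightest probe set of a gene and circles the others, coloured by call, with dotted lines at 2-fold. PTPRF spans 0.40 to 4.54 and PTPN22 spans -3.76 to -0.12, and no gene has probe sets called in opposite directions.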

How the data were processed

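Total RNA of T98G and U87MG cells was biotin-labelled by one-cycle amplification for Affymetrix arrays, 3 per line, per the labels' protocols. The values deposited by the authors are log2 intensities of probe sets. The submitters' processing notes name RMA and limma, without versions. RMA makes intensity distributions alike between arrays, which can mask unequal total RNA and compress differences of dim transcripts. Deposited log2 values ran from 2.90 to 14.9, the median residual SD was 0.146, and the number of arrays limits the precision.

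Of 22277 probe sets, 62 were controls, 19064 had 1 listed symbol, 1043 had several and 2108 had none in the platform annotation of 2016. Entrez identifiers were looked up in RefSeq's GRCh38.p14 table to update symbols, and none of the 50 genes changed name. The lines were compared in R 4.3.3 with limma 3.58.1, by two-sided moderated tests from lmFit and eBayes that had 4 residual degrees of freedom. The p-values were adjusted by Benjamini-Hochberg across 11963 genes, and calls needed an adjusted p below 0.05 and a difference of 2-fold or more. The genes, the 9 lists, their roles and the tests were chosen with earlier results of these data known. Named with values per array were all called genes with arrays that did not overlap, a set of well-known phosphatases, and in each class the genes with the highest mean and the largest difference. PTPRJ, in the set of well-known phosphatases, was not among the 50 genes. From each list up to 3 called genes per direction were named, with further ones where a count was small.

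Promoters came from RefSeq (GRCh38.p14). PTPN3 and PTPRD, with 4 and 3 starts listed, were not printed, and protein sequences were not used here. The limma comparison was tested on simulated data with known shifts. Alternatives were other thresholds, limma's treat against a 1.5-fold difference, filters on dim or multiply matching probe sets, other summaries of a gene's probe sets, other scaling and variance models, the replicate number as a block, and each array left out.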

Additional observations from a re-analysis of the deposited data

How the results depend on the processing

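With no fold minimum, 12 phosphatase genes were higher and 15 lower in T98G, and over all genes 4942 passed, beside 1624 in the main comparison. With at least 4-fold, 1 was higher and 6 were lower, and 574 of all genes passed. With probe sets that may match several transcripts left out, 41 genes had a value, and 1 was higher and 6 were lower. Testing each probe set singly called 2442 of 19064 probe sets and the same 12 genes. Limma's treat against 1.5-fold added DUSP5 and PTPRO. Without dim probe sets, 31 genes had a value and PTPRD and PTPRR were lost. Centring, quantile normalization and the variance model left the same 12 genes called. Leaving out 1 array gave 3 higher each time and 8 to 9 lower, and the lost gene was PTPRM without U87MG replicate 2. The largest change of fold was that of PTPRF, from 3.95 to 5.03 on the log2 scale. An adjusted p under 0.05 was lost by DUSP4, PTPN2, PTPN11 and PTPN14 on leaving out some of the arrays, at up to 0.1508, 0.1023, 0.09559 and 0.1433 (limma), and none of these 4 was called. It was also lost by DUSP4 and PTPN2 on averaging a gene's probe sets, at 0.1818 and 0.8282 (limma). Without multiply matching probe sets DUSP4 had 0.4931 (limma). PTPN14 had 0.05828 after centring, 0.05786 after quantile normalization and 0.05164 with the replicate block (limma). The sign turned for genes near 0. On leaving out 1 array, PTPN7 ran from -0.30 to 0.18, PTPN1 from -0.061 to 0.20, PTPN6 from -0.10 to 0.032, PTPN12 from -0.024 to 0.050 and PTPRK from -0.045 to 0.16. PTPN12 was -0.0099 after centring and -0.012 after quantile normalization, and PTPRC was 0.073 without multiply matching probe sets, on a probe set under the floor on all 6 arrays. Readings of PTPRZ1 were also all under the floor, so the sign of its values (-0.019 after centring, -0.067 to 0.093 on leaving out 1 array) has no meaning. The labels share replicate numbers between lines. Same-numbered arrays deviated together by correlations of 0.153, 0.076 and 0.081, and 6 of 6 arrays correlated best with their own number. The main comparison did not use the numbers as pairs, and these correlations do not decide whether they are. With the replicate block the same 12 genes were called, 3 higher and 9 lower, and 1626 of all genes. Readings near the floor limit what can be said of PTPN20, PTPRZ1, PTPRC, the second probe set of PTPRO and the T98G levels of PTPRD, PTPRR and PTPN22.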
